A study of Homo sapiens with 21 samples.

Results

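The matrix metalloproteinases (MMPs) and tissue inhibitors of metalloproteinases (TIMPs) described here are 10 of the 42339 genes in a count table of BT-549, an established triple-negative breast cancer (TNBC) cell line. They are 7 MMPs (MMP1, MMP2, MMP3, MMP9, MMP10, MMP13 and MMP14) and 3 TIMPs (TIMP1, TIMP2 and TIMP3), taken by gene symbol through the Ensembl identifiers. MMP1 was chosen by its measured fall under GO-203, a peptide inhibitor of the MUC1-C cytoplasmic domain, among the largest of that treatment. The values of the GO-203 comparison are therefore given as a description, and no test result is read from them.

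RNA-seq was performed on 21 libraries, 3 in each of 7 groups, to ask how 3D growth and targeting of MUC1-C or MYC change the transcriptome. The 2D cells grew as monolayers in RPMI1640 with fetal bovine serum and insulin. The 3D cells were mammospheres at serial passage 6, grown in MammoCult medium on ultra-low attachment plates without an shRNA, so growth format, medium and passage differed together between 2D and 3D cells. GO-203-treated cells were such passage 6 mammospheres with 0.75 µM GO-203, and the 3D cells they are set against are labelled as control, which the study describes as vehicle without naming the agent for these libraries. The tet-MUC1shRNA mammospheres at passage 6 and the tet-MYCshRNA mammospheres at passage 8 carried an shRNA vector that doxycycline (DOX) switches on, and had been selected with puromycin. Each received 0.1% DMSO as vehicle or 500 ng/ml DOX. No control-shRNA library with DOX was analysed here, so silencing and other effects of DOX cannot be told apart, and neither can the shRNA line and the passage. The samples are labelled as triplicates, and nothing says how the cultures were separated, so p-values measure the spread between these samples, which may be in part technical.

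MMPs are zinc-dependent proteases made as proenzymes that cleave collagens and other matrix proteins once activated, and TIMPs bind and block their active site. MMP1 and MMP13 are collagenases, MMP3 and MMP10 are stromelysins, MMP2 and MMP9 are gelatinases, and MMP14 is a membrane-anchored enzyme that activates pro-MMP2 on the cell surface with TIMP2 as a bridge. In breast tumours these enzymes are known for matrix remodelling during invasion. The libraries measure RNA, not proenzyme, active enzyme or inhibitor protein.

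Promoter sequences were found in the RefSeq table for 4 of the 10 members (MMP10, MMP14, TIMP1 and TIMP3), 250 bases upstream of each start on the gene's strand in GRCh38.p14. They are shown because AP-1 (Fos and Jun proteins) and ETS factors are the classical regulators of this family, and because MYC binds the E-box. Capitals mark a match to the AP-1 letters TGANTCA, the E-box letters CACGTG or the ETS-binding PEA3 core letters AGGAAG, each searched on both strands.
MMP10, chr11:102780629-102780878, minus strand: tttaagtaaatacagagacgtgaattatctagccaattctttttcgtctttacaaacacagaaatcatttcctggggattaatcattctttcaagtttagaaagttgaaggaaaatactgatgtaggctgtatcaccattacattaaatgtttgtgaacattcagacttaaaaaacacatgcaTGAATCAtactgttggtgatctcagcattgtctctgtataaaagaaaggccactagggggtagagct
MMP14, chr14:22836335-22836584, plus strand: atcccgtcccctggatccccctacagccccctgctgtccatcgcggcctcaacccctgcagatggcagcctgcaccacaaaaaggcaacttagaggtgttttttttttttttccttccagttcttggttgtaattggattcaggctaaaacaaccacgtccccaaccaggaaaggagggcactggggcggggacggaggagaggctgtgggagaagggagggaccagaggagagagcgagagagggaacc
TIMP1, chrX:47582186-47582435, plus strand: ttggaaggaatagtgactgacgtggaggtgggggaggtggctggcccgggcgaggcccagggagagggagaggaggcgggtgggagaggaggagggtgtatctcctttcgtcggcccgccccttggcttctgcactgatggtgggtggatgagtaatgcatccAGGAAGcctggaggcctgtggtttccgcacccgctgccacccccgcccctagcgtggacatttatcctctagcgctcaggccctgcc
TIMP3, chr22:32801455-32801704, plus strand: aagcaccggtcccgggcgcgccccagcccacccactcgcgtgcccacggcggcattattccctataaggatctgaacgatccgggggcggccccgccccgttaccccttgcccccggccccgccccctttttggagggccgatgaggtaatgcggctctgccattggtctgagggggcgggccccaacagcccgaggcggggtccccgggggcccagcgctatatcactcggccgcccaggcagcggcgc
The MMP10 window held 1 AP-1 match, starting 67 bases upstream of the start, and 6.57% of 35116 promoter windows of this length held one. The TIMP1 window held 1 PEA3 core match 87 bases upstream, a motif present in 28.7% of the windows. The MMP14 and TIMP3 windows held none of these letters, and no member window held the E-box, which 6.34% of windows held. The windows differed in base composition, with a GC content of 34.4% for MMP10, 56.8% for MMP14, 64.8% for TIMP1 and 72.4% for TIMP3, against a median of 58.0% over all windows. A match is a description of letters, not a site shown to be bound.

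In GENCODE release 44 (GRCh38), MMP10, MMP1, MMP3 and MMP13 lie on the minus strand of chromosome 11 within 102770502 to 102955732, a stretch of 185 kb, with 37.6 kb between the ends of MMP1 (102789401 to 102798160) and MMP3 (102835801 to 102843609). MMP2 lies on chromosome 16 (55389700 to 55506691), MMP14 on chromosome 14 (22836560 to 22849041) and MMP9 on chromosome 20 (46008908 to 46016561), each on the plus strand. TIMP1 on chromosome X (47582408 to 47586789) and TIMP3 on chromosome 22 (32801705 to 32863041) lie on the plus strand inside SYN1 and SYN3 on the other strand, and TIMP2 is on the minus strand of chromosome 17 (78852977 to 78925387). Exons of MMP1 and MMP3 overlap WTAPP1 on the opposite strand over 8.15% and 1.73% of their length, but WTAPP1 did not exceed 0.0544 CPM (counts scaled to library size, defined below) in any library. Exons of MMP9 overlap an antisense gene over 18.4% of their length, 3.70% of the exon length of MMP2 and 3.61% of that of TIMP2 is shared with a same-strand gene, and the strand setting of the counting is not given in the sources used here.

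Library totals ran from 38026597 to 99751717 counts (median 53548353), and small counts were even in 68.5% to 72.8% of the genes with 1 to 10 counts, as when both reads of a pair are counted, and if so counting error is larger than the raw counts show. All 4 mesenchymal markers were expressed in every group, with VIM between 1066 and 2507 CPM. ESR1 reached at most 1.49 CPM and PGR at most 0.0706 CPM, while ERBB2 ran from 18.2 to 42.3 CPM. The labels give an epithelial source, and of the 6 epithelial markers EPCAM reached at most 0.122 CPM, KRT19 0.106, KRT18 0.997, KRT8 1.54 and CDH1 1.55 CPM, while KRT5 ran from 0 up to 98.3 CPM in single libraries. Of 6 markers of immune, endothelial, fibroblast and mural cells, only PECAM1 and ACTA2 exceeded 2 CPM in any library, and VWF did not exceed 0.176 CPM. MUC1 RNA fell on MUC1 silencing from 89.4 ± 9.8 to 21.6 ± 1.5 CPM (SD, n = 3) and MYC RNA fell on MYC silencing from 418 ± 32.6 to 275 ± 32.9 CPM.

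Levels are CPM, counts as a share of the library total scaled by TMM factors over the 21 libraries. Of the 10 members, 6 had counts above 3 in every library and a mean of 36.8 CPM or more over the libraries (MMP1, MMP2, MMP14, TIMP1, TIMP2 and TIMP3). MMP3 and MMP9 were above 1 CPM in part of the groups, and MMP10 and MMP13 stayed at or below 0.396 CPM in every library. Per exon length, as RPKM (CPM divided by kilobases of exon), MMP14 had the highest level of the MMPs in 6 of 7 groups, up to 113 ± 1.93 RPKM in DOX-treated tet-MUC1shRNA mammospheres (SD, n = 3). With GO-203 it was at 9.48 ± 0.158 RPKM and MMP2 was above it, at 10.3 ± 0.500 RPKM, without overlap. TIMP1 had the highest level of the TIMPs in every group, with 42.6 ± 6.86 RPKM in 2D cells, where TIMP2 was close to it at 40.5 ± 3.10 RPKM and their libraries overlapped. The plot of the 6 expressed members shows the value of each library.

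**Figure D1:**
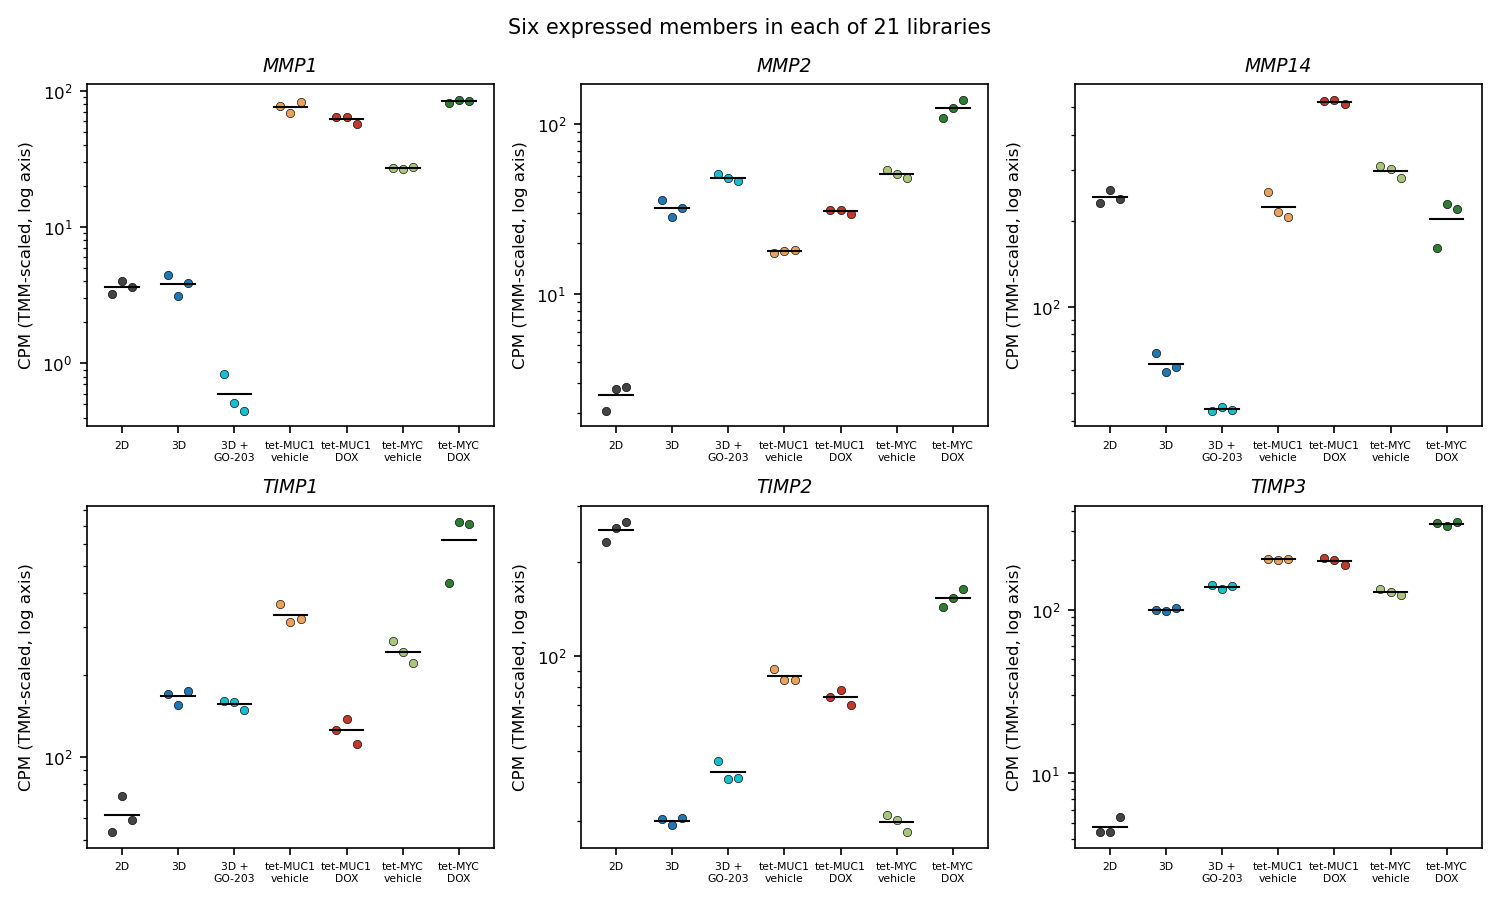
CPM (vertical log axis, TMM-scaled) of the 6 expressed members in 21 libraries, by group on the horizontal axis. Each point is 1 library and each line the mean of 3. MMP1 lies at 0.448 to 0.840 CPM under GO-203 and at 26.9 to 85.9 CPM in the 4 groups of tet lines, and TIMP3 at 4.37 to 5.43 CPM in 2D cells and at 98.0 CPM or above in every other library.

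MMP1 is the interstitial collagenase. Its CPM was 3.26, 4.04 and 3.63 in the 2D libraries and 4.49, 3.14 and 3.87 in the 3D libraries. With GO-203 it was 0.840, 0.513 and 0.448 CPM, from 38, 20 and 27 counts. All 3 treated libraries lay below every 2D and 3D library. The tet-MUC1shRNA mammospheres had 77.1, 68.8 and 82.9 CPM with vehicle and 64.4, 64.9 and 57.2 CPM with DOX. The tet-MYCshRNA mammospheres had 27.1, 26.9 and 27.9 CPM with vehicle and 81.8, 85.9 and 84.7 CPM with DOX. All vehicle libraries of the tet lines thus lay above all 3D libraries without an shRNA, by 19.9-fold for tet-MUC1shRNA and 7.12-fold for tet-MYCshRNA between group means. Vector, selection and, for the MYC line, passage differ between these groups, the vehicle may differ too, and these cannot be told apart. In the order of group means only DOX-treated tet-MYCshRNA and vehicle-treated tet-MUC1shRNA mammospheres overlapped, and likewise 3D and 2D cells.

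The question of the first comparison was which genes change between 3D and 2D cells. In it MMP2, TIMP3 and TIMP1 rose, MMP9, MMP14 and TIMP2 fell, and MMP1 showed no change that passed the test. Of the 10 members, 7 passed the low-count filter. The call rule asked for a log2 fold change beyond 1.5 in either direction together with an adjusted p under 0.1 (edgeR's quasi-likelihood test, adjusted over all genes tested). It was met by 5 members, against 16.2% of all 19190 genes tested, with 2 members up (6.9% of genes) and 3 down (9.29% of genes). Of these 3, MMP9 passed the filter through the 2D libraries alone, so for it only a fall could be called. The adjusted p alone was passed by 6 members and by 63.7% of genes. The 3 members that were not tested, MMP3, MMP10 and MMP13, had at most 34 counts in any of the 6 libraries. The median log2 fold change of the 7 tested members was 0.13, and that of all genes tested was -0.01.

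MMP2, the gelatinase that MMP14 activates, was at 2.05, 2.76 and 2.82 CPM in 2D cells and at 35.7, 28.6 and 32.2 CPM in 3D cells. The groups did not overlap, and MMP2 rose 13.0-fold (log2 fold change 3.70 ± 0.12 SE, adjusted p = 1.69e-13, edgeR). MMP14 itself moved the other way, from 230, 256 and 239 CPM in 2D cells to 69.0, 59.3 and 61.7 CPM in 3D cells. It fell 3.67-fold (log2 -1.87 ± 0.07, adjusted p = 4.96e-13, edgeR), without overlap. The vehicle-treated mammospheres of the tet lines did not share this lower level. Their mean MMP14 was 3.54-fold (tet-MUC1shRNA, 224 CPM, overlapping the 2D libraries) and 4.71-fold (tet-MYCshRNA, 298 CPM, above every 2D library) that of 3D cells, differences that were not tested. MMP1 had overlapping groups (log2 0.13 ± 0.17, adjusted p = 0.551, edgeR), and the 3D libraries here are the ones that GO-203-treated libraries were set against when MMP1 was chosen.

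The inhibitors moved in different directions. TIMP3, the matrix-bound inhibitor, rose from 4.37, 4.41 and 5.43 CPM to 100.0, 98.0 and 102 CPM (log2 4.45 ± 0.08, adjusted p = 1.72e-16, edgeR), the largest change among the tested members. TIMP2, which also bridges pro-MMP2 to MMP14, fell 8.07-fold from 231, 255 and 269 CPM to 30.3, 29.0 and 30.7 CPM (log2 -3.01 ± 0.07, adjusted p = 1.003e-15, edgeR). Neither gene's groups overlapped. TIMP1, a secreted inhibitor of most MMPs, rose from 53.2, 72.5 and 58.9 CPM to 171, 156 and 174 CPM. Its log2 fold change of 1.49 ± 0.09 (adjusted p = 3.39e-10, edgeR) lay just under the fold threshold, and it passed that threshold with DESeq2, with the replicate number as a block, without the 2D replicate 2 (1.64), and without the 3D replicate 1 (1.505) or 2 (1.56). The lowest value among the other alternatives was 1.41, without the 2D replicate 1.

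Members with few counts are shown by raw count. MMP9, the other gelatinase, had 59, 97 and 62 counts in 2D cells and 2, 0 and 18 in 3D cells. It fell (log2 -3.50 ± 0.59, adjusted p = 7.57e-05, edgeR), and since 18 of its 20 counts in 3D cells were in replicate 3, the value was -5.90 without that library. MMP9 passed the low-count filter through the 2D libraries alone, so only a fall could be called. It was not tested when 10 counts in every library were required. MMP3 was at 0 counts in all 2D libraries and at 4, 10 and 34 in 3D cells. Against a floor of 3 counts per 2D library it was at least 4.54-fold higher in 3D cells, or at least 2.37-fold without the 3D replicate 3, which held 34 of the 48 counts, and the low-count filter removed it from the test. MMP13 was removed likewise, with 8, 4 and 10 counts in 2D cells and 0, 0 and 2 in 3D cells, which do not overlap. Without a filter both met the call rule, MMP3 up and MMP13 down. MMP10 had 1 count in the 6 libraries, and no difference was detectable at this depth.

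**Figure D2:**
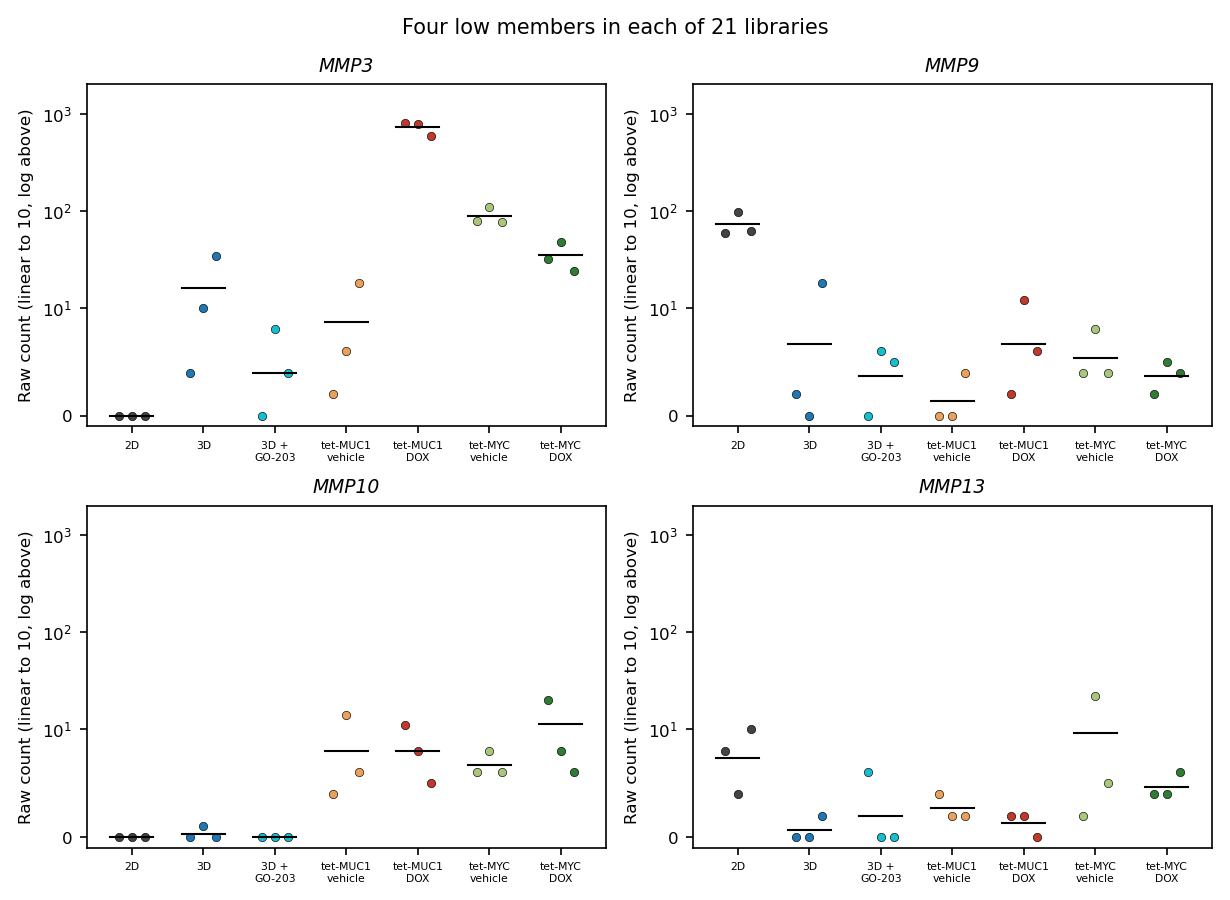
Raw counts of MMP3, MMP9, MMP10 and MMP13 (vertical axis linear to 10 counts and logarithmic above) in 21 libraries, by group; each point is 1 library and each line the mean of 3. MMP3 reaches 583 to 797 counts in DOX-treated tet-MUC1shRNA mammospheres and at most 110 in any other library, and MMP9 exceeds 18 counts in 2D cells alone.

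The second comparison asked what silencing of MUC1 changes in tet-MUC1shRNA mammospheres. MYC RNA was higher with DOX there by 0.25 on the log2 scale (± 0.04, adjusted p = 5.01e-05, edgeR). MMP3, MMP14 and MMP2 rose with DOX, and TIMP1 and MMP1 fell. TIMP2 fell by 0.23 on the log2 scale, a change lost when libraries were scaled by their size alone. Of 7 members tested, MMP3 alone was called, against 8.82% of 19220 genes, 5.74% up and 3.08% down. MMP3 passed the low-count filter through the DOX libraries alone, so for it only a rise could be called. The adjusted p alone was passed by 3 members upwards (30.7% of genes) and 3 downwards (31.6% of genes), together 62.2% of all genes. The median log2 fold change of the tested members was -0.04, and that of all genes tested was 0.02. Scaling by library size alone moved the median of all genes by 0.17, so a change smaller than that can turn sign with the scaling.

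MMP3, the stromelysin that activates several other proMMPs, went from 2, 6 and 18 counts (0.0519, 0.140 and 0.348 CPM) with vehicle to 797, 785 and 583 counts (14.5, 11.2 and 13.1 CPM) with DOX. The groups were far apart, and the rise was 65.1-fold (log2 6.02 ± 0.24, adjusted p = 1.62e-14, edgeR). It was 6.995 on the log2 scale without the vehicle replicate 3, which held 18 of the 26 vehicle counts, and MMP3 was not tested when 10 counts in every library were required. MMP1 lies in the same cluster and moved slightly the other way (log2 -0.30 ± 0.06, adjusted p = 2.02e-04, edgeR), with the 3 DOX libraries below the 3 vehicle libraries. With library size alone the MMP1 value was smaller (log2 -0.14, adjusted p = 0.049, edgeR). MMP10, the other stromelysin, had 4, 14 and 6 counts with vehicle and 11, 8 and 5 with DOX, which overlap. MMP9 had 0, 0 and 4 counts with vehicle and 2, 12 and 6 with DOX, which overlap as well, and it was not tested. MMP13 stayed at 4 counts or fewer.

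MMP14 rose 2.32-fold (log2 1.21 ± 0.06, adjusted p = 1.11e-13, edgeR), from 252, 214 and 206 CPM with vehicle to 525, 528 and 511 CPM with DOX, its highest values in the 21 libraries. MMP2 was at 17.5, 17.9 and 18.2 CPM with vehicle and at 31.4, 31.3 and 29.8 CPM with DOX (log2 0.78 ± 0.06, adjusted p = 1.11e-09, edgeR). TIMP1 fell 2.66-fold, from 362, 313 and 319 CPM to 126, 138 and 112 CPM (log2 -1.41 ± 0.06, adjusted p = 2.37e-14, edgeR). For these 3 genes the groups did not overlap.

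TIMP2 was at 91.4, 84.4 and 84.3 CPM with vehicle and at 74.4, 78.1 and 70.0 CPM with DOX (log2 -0.23 ± 0.05, adjusted p = 3.85e-04, edgeR; log2 -0.07, adjusted p = 0.230 with library size alone). TIMP3 was at 202, 201 and 205 CPM with vehicle and at 207, 202 and 188 CPM with DOX, with overlapping groups. Its log2 fold change was -0.04 ± 0.04 (adjusted p = 0.486, edgeR), and it turned to 0.13 (adjusted p = 0.00760) with library size alone and to 0.0154 (adjusted p = 0.760) when 10 counts in every library were required.

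The third comparison asked what silencing of MYC changes in tet-MYCshRNA mammospheres. MMP1, MMP2 and the 3 TIMPs rose with DOX, and MMP14 and MMP3 fell. Of 7 members tested, 2 were called (MMP1 and TIMP2, both up), against 10.5% of 19951 genes, 7.06% up and 3.39% down, and 7 passed the adjusted p alone, against 58.5% of all genes. The median log2 fold change of the tested members was 1.34, and that of all genes tested was 0.01. MYC RNA itself fell by only 0.62 on the log2 scale, and MUC1 RNA was higher with DOX by 1.25.

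MMP1 rose 3.05-fold with the values given above (log2 1.61 ± 0.07, adjusted p = 4.59e-08, edgeR). TIMP2 rose 5.12-fold, from 31.3, 30.3 and 27.6 CPM to 144, 153 and 164 CPM (log2 2.36 ± 0.07, adjusted p = 6.15e-09, edgeR), the largest change of a tested member here. TIMP3 went from 133, 128 and 122 CPM to 336, 323 and 344 CPM (log2 1.37 ± 0.06, adjusted p = 4.90e-08, edgeR). In each of these 3 genes every DOX library was above every vehicle library.

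TIMP1 was at 265, 243 and 221 CPM with vehicle and at 433, 727 and 711 CPM with DOX (log2 1.34 ± 0.15, adjusted p = 4.10e-05, edgeR). The DOX replicate 1 was the lowest of its group, and without it the value was 1.53, past the fold threshold. The same library was the lowest for MMP14 and MMP2. MMP2 went from 53.7, 50.8 and 48.5 CPM to 109.5, 124 and 139 CPM (log2 1.27 ± 0.08, adjusted p = 5.50e-07, edgeR). MMP14 went from 310, 303 and 283 CPM to 161, 229 and 220 CPM (log2 -0.57 ± 0.10, adjusted p = 9.19e-04, edgeR), again without overlap. MMP3 had 79, 110 and 76 counts with vehicle and 32, 48 and 24 with DOX (log2 -0.89 ± 0.31, adjusted p = 0.0333, edgeR, and between 0.0141 and 0.0933 over the alternatives). MMP9, MMP10 and MMP13 did not pass the low-count filter, with at most 22 counts in any of these libraries.

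**Figure D3:**
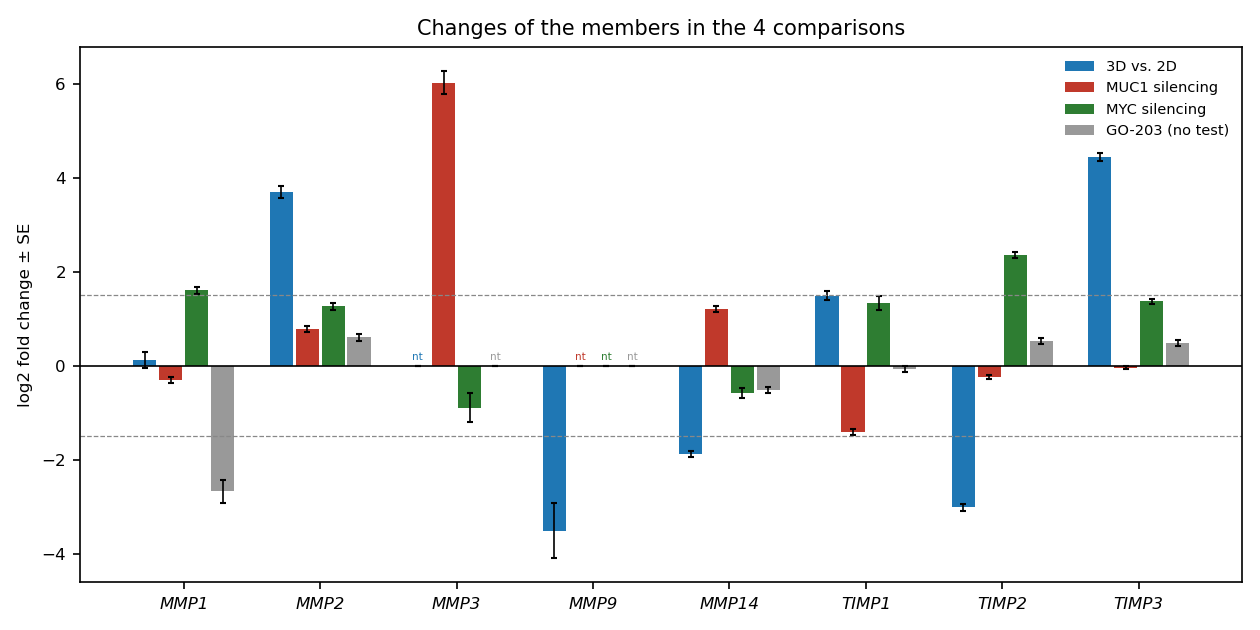
Log2 fold change (vertical axis, error bars are SE) of 8 members in 4 comparisons, each from 3 against 3 libraries. Dashed lines mark the fold threshold of 1.5, nt marks a member removed by the low-count filter, and grey bars are the GO-203 values, which have no test. MMP3 reaches 6.02 on MUC1 silencing, and TIMP2 is at -3.01 in 3D vs. 2D cells and at 2.36 on MYC silencing.

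The DOX effects in the tet-MUC1shRNA and tet-MYCshRNA mammospheres were compared directly, as an interaction over 12 libraries. Of 8 members tested, 7 passed an adjusted p below 0.1 (edgeR), against 52.9% of 21585 genes. MMP3 and MMP14 had the more positive effect in the MUC1 line, and MMP1, MMP2 and the 3 TIMPs in the MYC line. The difference was 6.91 ± 0.44 for MMP3 and -2.77 ± 0.19 for TIMP1 on the log2 scale. MMP10 did not pass (log2 -1.63 ± 0.94, adjusted p = 0.174, edgeR). Among all genes that passed, 49.1% had the more positive effect in the MUC1 line, and 61.2% with library size alone, which moved the median difference by 0.20. Line, passage and depth of silencing differ together in this comparison and cannot be told apart.

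GO-203 treatment of 3D cells is given as a description. The call rule is quoted only because it chose MMP1, and it is no test of the members here. By it 1 of 6 members with enough counts was selected, MMP1, which was the 2nd lowest of 48 called falls by log2 fold change. Over all genes 0.757% of 18488 met the same rule, 0.26% down and 0.498% up, from which nothing is read since this comparison chose the gene. MMP1 was 6.35-fold lower (log2 -2.67 ± 0.25). MMP14 was at 69.0, 59.3 and 61.7 CPM without and at 43.3, 44.6 and 43.5 CPM with GO-203 (log2 -0.51 ± 0.06), without overlap.

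MMP2 was at 35.7, 28.6 and 32.2 CPM without and at 50.8, 48.5 and 46.1 CPM with GO-203 (log2 0.61 ± 0.07). TIMP2 was at 30.3, 29.0 and 30.7 CPM without and 46.4, 40.7 and 41.1 CPM with GO-203 (log2 0.53 ± 0.06), and TIMP3 was at 98.0 to 102 CPM without and 134 to 141 CPM with it (log2 0.49 ± 0.06). These 3 genes were higher in every treated library. TIMP1 overlapped between the groups, with 156 to 174 CPM without and 149 to 161 CPM with GO-203 (log2 -0.07 ± 0.06). MMP3 had 0, 8 and 4 counts with GO-203 and 4, 10 and 34 without. MMP9 had 0, 6 and 5 counts with GO-203, MMP13 had 6, 0 and 0, and MMP10 had 0 in each. The 3D libraries are shared with the 3D vs. 2D comparison.

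Summed over the 7 MMPs and over the 3 TIMPs in RPKM, the family had more inhibitor RNA than protease RNA in 6 of the 7 groups. The TIMP to MMP ratio was 1.44 to 1.59 in the 2D libraries and 5.98 to 6.70 in the 3D libraries, and 7.20 to 7.28 with GO-203. In tet-MUC1shRNA mammospheres it was 3.53 to 3.62 with vehicle and 0.893 to 1.01 with DOX, the lowest of the 7 groups. In tet-MYCshRNA mammospheres it was 2.23 to 2.44 with vehicle and 4.47 to 5.54 with DOX. The ranges of no 2 groups overlapped, and the ratio was not tested. It is a ratio of RNA that does not pair an inhibitor with the proteases it blocks, and it says nothing of the active enzymes.

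**Figure D4:**
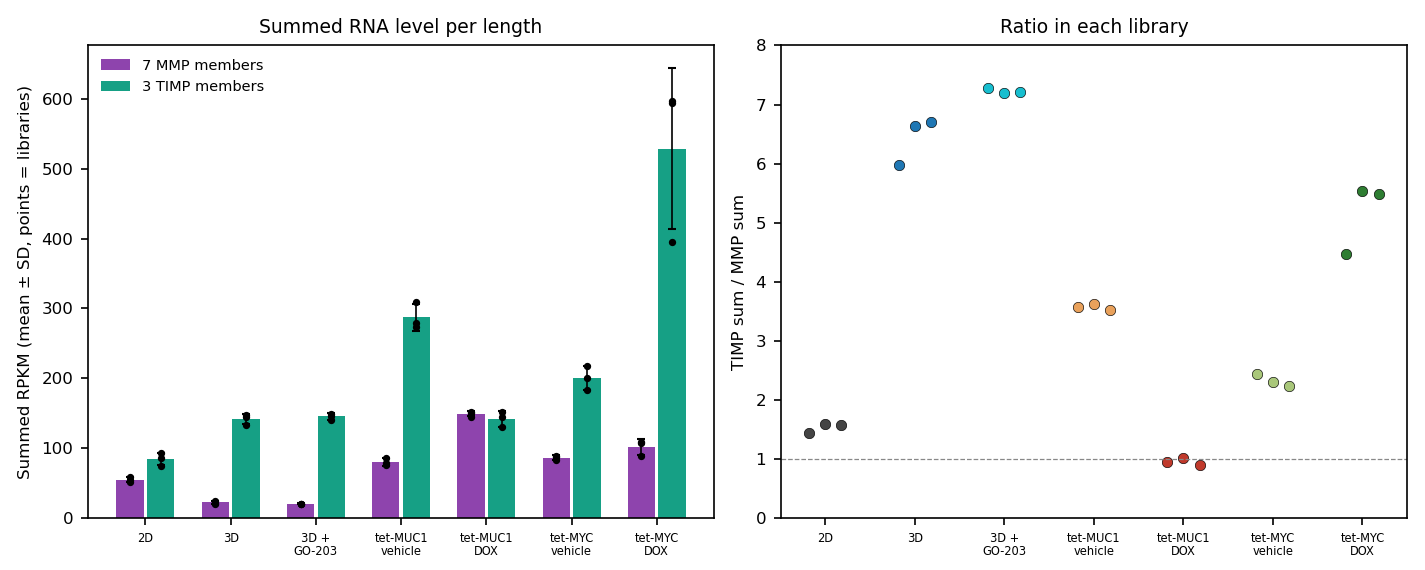
Left, summed RPKM (bars are means, error bars SD, points the 3 libraries) of the 7 MMPs and the 3 TIMPs in each group. Right, the TIMP to MMP ratio in each library on a linear axis, with a dashed line at 1; the DOX-treated tet-MUC1shRNA libraries lie at 0.893 to 1.01 and the 3D libraries at 5.98 to 6.70.

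The make-up of both sums differed between groups. MMP14 made up 95.1% to 95.7% of the MMP RPKM in 2D cells and 60.7% to 63.6% in 3D cells. With DOX its share was 74.9% to 76.3% in tet-MUC1shRNA and 39.3% to 45.9% in tet-MYCshRNA mammospheres. TIMP2 made up 44.6% to 50.8% of the TIMP RPKM in 2D cells and at most 8.71% in any other library. The ratio of TIMP2 to MMP14, the bridge and the activator of pro-MMP2, was 0.744 to 0.838 in 2D cells and 0.327 to 0.370 in 3D cells. With DOX it went from 0.270 to 0.305 down to 0.102 to 0.110 in tet-MUC1shRNA mammospheres, and from 0.0726 to 0.0752 up to 0.498 to 0.666 in tet-MYCshRNA mammospheres.

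The other secreted and membrane MMPs were a list of 16 genes, of which 15 were in the table and 8 were tested in 3D vs. 2D cells. In that comparison 2 were called up and 2 down, with a median log2 fold change of -0.36, against 6.9% of all genes called up and 9.29% down. MMP19 (log2 8.28 ± 0.16, adjusted p = 2.34e-16, edgeR) and MMP28 (epilysin, 5.21 ± 0.60) were higher in 3D cells. The membrane-type MMP15 (-3.01 ± 0.12) and stromelysin-3, MMP11 (-2.18 ± 0.23), were lower. On MUC1 silencing MMP15 rose (1.64 ± 0.19) and MMP11 fell (-2.73 ± 0.36), the called genes of 8 tested (median 0.14), against 8.82% of all genes. On MYC silencing MMP28 (3.34 ± 0.29) and MMP11 (1.92 ± 0.27) rose, the called genes of 9 tested (median 0.73), against 10.5% of all genes.

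Among 4 other inhibitors, TFPI2, a serine protease inhibitor of the matrix, rose in 3D cells (log2 2.28 ± 0.07, adjusted p = 9.38e-14, edgeR). In that comparison 2 of 3 tested were called, both up (median 2.28), against 6.9% of all genes called up. On MUC1 silencing 1 of 3 was called, upwards (median 1.06), against 5.74% of all genes. On MYC silencing 3 of 3 passed the adjusted p upwards without reaching the fold threshold (median 0.83). There 58.5% of all genes passed the adjusted p in either direction. Of 18 activators and surface partners of proMMPs, 15 were tested in 3D vs. 2D cells, with 2 called up and 1 down (median 0.38, and 16.2% of all genes called). The cathepsin CTSL rose (2.42 ± 0.08) and thrombospondin-1, THBS1, fell (-3.53 ± 0.06), and SERPINB2, an inhibitor of plasminogen activators, rose from 0 counts in each 2D library to 26, 18 and 35 counts. On MUC1 silencing THBS1 rose (4.43 ± 0.06) and LRP1, the receptor that clears several MMPs and TIMPs, fell (-2.92 ± 0.06), 1 in each direction of 15 tested (median -0.01, and 8.82% of all genes called). On MYC silencing LRP1 rose (3.06 ± 0.13) and SERPINB2 fell (-2.26 ± 0.13), with 2 called up and 1 down of 16 tested (median 0.58, and 10.5% of all genes called).

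The ADAM and ADAMTS proteases, of which several are blocked by TIMP3, had 20 of 24 genes tested in 3D vs. 2D cells, with 3 called up and 7 down (median -0.89), against 6.9% and 9.29% of all genes. ADAMTS7 rose from 4, 2 and 0 counts in 2D to 3493, 3360 and 3892 counts in 3D cells, ADAM8 rose (log2 4.51 ± 0.34), and ADAMTS10 (-6.13 ± 0.28) and the aggrecanase ADAMTS5 (-4.07 ± 0.20) fell, while TIMP3 rose. On MUC1 silencing 4 of 21 were called up and 1 down (median 0.24), against 5.74% and 3.08% of all genes, with ADAMTS5 (3.45 ± 0.24) and ADAM19 (2.14 ± 0.05) up, ADAM8 (-3.07 ± 0.34) down, and ADAMTS9 going from 0, 0 and 2 counts to 38, 38 and 20. On MYC silencing 6 of 21 were called up and 2 down (median 0.23), against 7.06% and 3.39% of all genes, and ADAMTS15 (2.79 ± 0.10), ADAMTS7 (2.56 ± 0.16) and ADAMTS14 (2.41 ± 0.17) rose the most among those with a mean of at least 1 CPM.

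A list of AP-1, ETS and related factors together with the Runt factors RUNX1 and RUNX2 had 21 of 23 genes tested in 3D vs. 2D cells. Of these 11 were called up, against 6.9% of all genes, and 2 passed the adjusted p downwards without reaching the fold threshold (median 1.54). Those 2 were RUNX1 (-0.33) and RUNX2 (-0.94), named after their values were seen. ETV4 (4.11 ± 0.19), MAFF (3.87 ± 0.11) and FOSL1 (3.09 ± 0.10) were among those that rose. MMP1, in the same libraries, showed no change that passed the test. On MUC1 silencing 6 of 21 passed the adjusted p upwards and 11 downwards, each below the fold threshold (median -0.19), against 30.7% and 31.6% of all genes. On MYC silencing 1 of 22 was called up (median -0.08), against 7.06% of all genes. Around the chromosome 11 cluster 16 genes were listed, MMP1, MMP3, MMP10 and MMP13 among them. In 3D vs. 2D cells 1 of 7 tested was called, the apoptosis inhibitor BIRC3 (3.18 ± 0.10), against 16.2% of all genes. The called genes on MUC1 and MYC silencing were the members MMP3 and MMP1. They were 1 of 8 and 1 of 9 tested, against 8.82% and 10.5% of all genes.

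Markers of other cells moved with some of these results. KRT5, a basal keratin, rose from 0, 0 and 4 counts in 2D to 1244, 1135 and 1610 in 3D cells, and with DOX in both tet lines (log2 3.70 ± 0.15 and 3.65 ± 0.19), and the summed level of the 6 epithelial markers went from 1.78 to 1.99 CPM in 2D cells up to 22.5 to 26.1 CPM in 3D cells. KRT5 made up nearly all of that sum in 3D cells (21.8 to 25.3 CPM). Of the 3 epithelial markers tested there, KRT8 also rose (1.51 ± 0.46, at most 0.569 CPM), and the defining marker CDH1, E-cadherin, fell from 67, 87 and 74 counts to 0 in each 3D library. With DOX the sum was 16.8 to 19.5 CPM in tet-MUC1shRNA and 53.6 to 73.7 CPM in tet-MYCshRNA mammospheres, against at most 1.75 and 6.80 CPM with vehicle. On MUC1 silencing all 4 epithelial markers tested, of the 6, were called up (median 4.09), against 5.74% of all genes. They were KRT8, KRT18 and CDH1 besides KRT5, though the first 3 stayed at or below 1.54 CPM with DOX. With vehicle all 6 markers together were at 0.949 to 1.75 CPM. A marker that passes the low-count filter through the DOX libraries alone can only be called up. With GO-203, the treatment that chose MMP1, the sum was 89.3 to 99.1 CPM, above every 3D library without it. FN1, a mesenchymal marker and matrix protein, rose in 3D cells (3.89 ± 0.06) and CDH2 fell (-3.11 ± 0.06). The summed level of the 4 mesenchymal markers was 2180 to 2245 CPM in 2D and 7785 to 8370 CPM in 3D cells, 11260 to 12345 CPM with vehicle and 8316 to 8943 CPM with DOX in tet-MUC1shRNA mammospheres, and 7916 to 7989 CPM with vehicle and 13694 to 16006 CPM with DOX in tet-MYCshRNA mammospheres. The summed level of the 6 markers of other cell types was 4.52 to 4.75 CPM in 2D and 6.75 to 7.94 CPM in 3D cells. Its 3 tested genes moved in both directions. The endothelial PECAM1 rose from 0, 0 and 2 counts to 342, 303 and 470, while the immune PTPRC (log2 -4.30 ± 0.47, from 67, 72 and 60 counts to 2, 6 and 2) and the mural ACTA2 (-2.55 ± 0.23) fell. PTPRC, CD68 and VWF were below 0.12 CPM in 3D cells. With DOX the sum was 5.24 to 6.15 CPM in tet-MUC1shRNA and 10.6 to 12.9 CPM in tet-MYCshRNA mammospheres, against 6.08 to 6.58 and 7.43 to 8.49 CPM with vehicle. The part of these in the members' changes was not tested, and fewer cells of a type and less RNA per cell cannot be told apart in bulk samples.

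The genes most like each member were taken by Pearson's r of log2 CPM over the 21 libraries, among 13598 genes with a mean of at least 1 CPM. The 21 points share 7 groups of 3, so r mostly reflects differences between groups, and it is given as a description. MMP1 was most like MAP4K4 (r = 0.964), RNF157 (0.950), KIAA1755 (0.936), ACER2 (0.932) and ZHX3 (0.930). MMP2 was most like ANPEP (0.983), an aminopeptidase of the cell surface, MMP3 like RAB3IP (0.949) and MMP14 like EXTL3 (0.953), an enzyme of heparan sulfate synthesis. TIMP1 was most like SERPINB6 (0.971), a serine protease inhibitor, and TIMP2 like CACNA1C (0.979), a calcium channel subunit. TIMP3 had the highest values, with SRPX (0.991), XYLT1 (0.990), which starts proteoglycan chains, and the matrix protein FN1 (0.988).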

How the data were processed

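Total RNA was sequenced by the authors as stranded, paired-end TruSeq mRNA libraries on a NovaSeq instrument. Reads were aligned to GRCh38 with STAR (version 2.7.3a in the submitters' processing notes; the study's methods name another) and assigned to genes with featureCounts. The authors deposited raw counts per gene without normalization, with DESeq2 named for their own analysis. Which annotation release, strand setting and rule for multiply mapped reads were used is not given in the sources used here. Between 4952 and 7587 gene rows were blank in a block of libraries and were read as 0, and no member was blank.

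Each comparison was fitted on its own 6 libraries, and the interaction on 12, with edgeR 4.0.16 in R 4.3.3 (filterByExpr, TMM, quasi-likelihood test, Benjamini-Hochberg over all genes tested). RPKM used union exon lengths of GENCODE release 44, and 8 of the 10 members had the same identifier version there. The members and all lists were chosen with earlier results of these data known. All 10 members were named. Of the lists, genes called in a tested comparison with a mean of at least 1 CPM could be named, at most the 4 largest changes per list and comparison. Cell type and receptor markers were named regardless of this rule, as was the antisense WTAPP1, and RUNX1 and RUNX2 were named after their values were seen. The fits were checked on simulated counts.

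Alternatives were DESeq2 1.42.0, RLE factors, library size alone, no filter, all 21 libraries fitted together, a minimum of 10 counts in each library, the replicate number as a block, adjusted p alone, leaving out each library and, chosen after seeing the data, counts halved because most small counts were even.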

Additional observations from a re-analysis of the deposited data

Results flagged for a closer look

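The DOX effect differed between tet-MUC1shRNA and tet-MYCshRNA mammospheres by the interaction test for 7 members (edgeR, adjusted over 21585 genes, of which 52.9% passed). The difference, MUC1 line minus MYC line on the log2 scale, was 6.91 for MMP3 (adjusted p = 4.94e-10, effects of 6.02 and -0.89) and 7.88 without the tet-MUC1shRNA vehicle replicate 3. It was 1.77 for MMP14 (adjusted p = 4.37e-09, effects of 1.21 and -0.57). For both genes the effects had opposite signs and each passed its own test, though on MUC1 silencing only a rise of MMP3 could be called.

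The difference was -1.93 for MMP1 (adjusted p = 3.08e-11, effects of -0.30 and 1.61) and -2.77 for TIMP1 (adjusted p = 1.19e-09, effects of -1.41 and 1.34), again with opposite signs. It was -2.60 for TIMP2 (adjusted p = 1.55e-13, effects of -0.23 and 2.36) and -1.42 for TIMP3 (adjusted p = 1.85e-11, effects of -0.04 and 1.37). For MMP2, which rose in both lines, it was -0.50 (adjusted p = 4.09e-04, effects of 0.78 and 1.27). Groups of 3 libraries are too small for a test of single outlying libraries.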

How the results depend on the processing

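Of 449 values of single members in the tested comparisons under the alternatives, 440 kept their direction, their side of the adjusted p and their side of the call rule (adjusted p and fold together), 6 passed the fold threshold in addition, all for TIMP1, and 2 turned sign, both for TIMP3 on MUC1 silencing (0.13 with library size alone and 0.0154 with at least 10 counts in every library). The remaining value was TIMP2 on MUC1 silencing, which was not called either way and lost its adjusted p with library size alone (0.230). Counts with GO-203 are descriptions of the comparison that chose MMP1, not tests of the members, and all 84 values of single members there kept their sign; they moved by less than the SD of log2 CPM between libraries, pooled over both groups, but 5 moved by more than their SE, each when 1 library was left out (MMP1 to -2.99 without the GO-203 replicate 1). With the adjusted p alone, 6 members were called on MUC1 silencing, 5 with GO-203 and 7 on MYC silencing, and all genes called came to 12223 in 3D vs. 2D cells, 11962 on MUC1 silencing, 4452 with GO-203 and 11665 on MYC silencing, against 3107, 1695, 140 and 2085. With at least 10 counts in every library these were 1614, 820, 47 and 1250, and 0 members were called on MUC1 silencing, since MMP3 was no longer tested; 5 passed the adjusted p. Without a filter, 2606 genes were called on MUC1 silencing and 212 with GO-203. The GO-203 count was also 62 with DESeq2, 254 with all 21 libraries in one fit and 72 with counts halved; those causes were not tested. Leaving out 1 library gave 5 to 7 called members in 3D vs. 2D cells, 1 on MUC1 silencing, 1 to 2 with GO-203 (MMP3 in addition without the GO-203 replicate 2), 2 to 3 on MYC silencing and 7 in the interaction, while all genes called came to 3419 to 3661, 1854 to 2153, 144 to 196, 2212 to 2393 and 10743 to 12146, in the first 4 above the counts with all libraries and in the interaction on both sides of 11420. In 3D vs. 2D cells MMP3 was called in addition without any 1 of the 2D libraries or the 3D replicate 1, with all 21 libraries in one fit and without a filter, the last also adding MMP13. The replicate numbers did not pair the samples (mean correlation of same-numbered deviations between -0.108 and 0.0633). With the replicate block 6, 1, 1 and 2 members were called in 3D vs. 2D cells, on MUC1 silencing, with GO-203 and on MYC silencing, 7 passed in the interaction, and 3138, 1726, 150 and 2127 of all genes were called. Depth limits MMP9, MMP10 and MMP13 in the mammospheres, where they had at most 22 counts.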
